A study of Mus musculus with 2 samples.

Results

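The loci described here are 8 windows of the mouse genome (build mm9) around 9 genes for transcription factors of the developing limb: Tbx3 and Tbx5, which share a window, Hand2, Meis1, Meis2, Msx1, Msx2, Prrx1 and Shox2. Their members were the peaks of the deposited Smad4 ChIP-seq list whose midpoint lay in a window. The rule that set the windows used no peak values, but it was chosen with earlier results of these data known. This gave 252 of 90984 peaks (0.277%) in 6.6 Mb on 7 chromosomes. No other peak overlapped a window.

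In ChIP-seq, DNA bound by a protein is recovered with an antibody and sequenced, and a peak is a stretch where sequenced tags pile up. There was 1 Smad4 ChIP library, beside 1 input library made from forelimb DNA with no antibody. Both were from forelimbs of C57BL/6 embryos at embryonic days 12.5 and 13.5, ages that the labels give together for each library, with no genetic change or treatment named. Whole forelimbs hold many cell types, and a peak list does not tell in which of them Smad4 was bound. It holds no expression values, so the tissue label could not be checked against marker genes, and with 1 library there is no replicate check of any value. The depth of either library is unknown.

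Smad4 joins the Smads that BMP and TGF-β receptors phosphorylate, and the complex enters the nucleus and contacts GTCT-type and GC-rich elements in DNA. In the limb, Tbx5 starts forelimb outgrowth and Tbx3 acts at the limb margins, Hand2 acts in posterior mesenchyme upstream of Sonic hedgehog, and Meis1 and Meis2 mark the proximal limb. Msx1 and Msx2 are homeobox genes known to respond to BMP in limb mesenchyme, Prrx1 is a homeobox gene of limb mesenchyme, and Shox2 is needed for the proximal limb skeleton.

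Each window also holds sequence beside other genes. By gene order in RefSeq GRCm38.p6, used for names only, Tbx3 and Tbx5 are adjacent and lie between Med13l and Rbm19, Hand2 between Fbxo8 and Scrg1, Meis1 between Etaa1 and Spred2, and Meis2 between BC052040 and Tmco5. Msx1 lies between Cytl1 and Stx18, Msx2 between Gm38564 and Drd1, Prrx1 between Mroh9 and Gorab, and Shox2 between Ptx3 and Rsrc1. Annotation of the build of the peaks was not used here, so distances to start sites, and whether a peak was exonic, intronic or intergenic, were not determined.

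Promoters of 7 of the 9 genes were found in the RefSeq table (GRCm38.p6, 250 bases before to 50 after the start), and Tbx3 and Tbx5 were not matched. They were searched on both strands for the Smad elements GTCT (AGAC on the other strand), GTCTAGAC, which contains both, and GGCGCC, and for the homeodomain core TAATTA. Those of 3 genes are shown in 5′ to 3′ direction because they hold TAATTA, with the matches in capitals: Hand2 (chr8:57320733-57321032, plus strand), with 1 GGCGCC and 1 TAATTA, Msx2 (chr13:53472731-53473030, minus strand), with 2 GTCT and 1 TAATTA, and Prrx1 (chr1:163313601-163313900, minus strand), with 3 GTCT or AGAC and 1 TAATTA, which shares its last base with an AGAC.
Hand2 promoter: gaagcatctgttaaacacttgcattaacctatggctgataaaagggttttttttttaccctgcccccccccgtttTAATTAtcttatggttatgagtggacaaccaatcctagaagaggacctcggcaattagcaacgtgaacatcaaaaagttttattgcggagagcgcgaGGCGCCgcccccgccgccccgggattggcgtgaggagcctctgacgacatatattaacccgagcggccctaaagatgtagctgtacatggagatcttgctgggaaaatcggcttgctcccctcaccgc
Msx2 promoter: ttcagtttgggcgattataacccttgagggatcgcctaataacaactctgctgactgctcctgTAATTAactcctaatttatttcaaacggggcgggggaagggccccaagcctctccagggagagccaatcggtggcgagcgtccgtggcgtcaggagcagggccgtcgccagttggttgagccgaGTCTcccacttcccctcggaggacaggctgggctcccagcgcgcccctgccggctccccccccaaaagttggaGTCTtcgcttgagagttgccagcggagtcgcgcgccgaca
Prrx1 promoter: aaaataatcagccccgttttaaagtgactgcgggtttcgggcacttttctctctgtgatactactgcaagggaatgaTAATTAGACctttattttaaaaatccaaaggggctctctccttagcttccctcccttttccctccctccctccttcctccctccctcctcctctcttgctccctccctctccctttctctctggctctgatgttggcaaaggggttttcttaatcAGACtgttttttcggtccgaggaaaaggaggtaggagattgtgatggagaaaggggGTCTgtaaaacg

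Of the other promoters, Meis1 and Meis2 held 2 GTCT or AGAC each, Shox2 held 1 and Msx1 held 0. The Hand2 promoter shown above also held 0 GTCT or AGAC, and GTCTAGAC was in none of the 7. Among all 32851 promoters of this length, 88.0% held GTCT or AGAC, 0.213% GTCTAGAC, 11.9% GGCGCC and 5.29% TAATTA, so GTCT alone sets no promoter apart. These positions are of another build than the peaks. Whether a promoter lay inside a peak was not determined.

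The first comparison asked whether the loci held more Smad4 peaks than the rest of their chromosomes. Peak density was higher than in the rest of the chromosome at 6 of the 8 loci and lower at Tbx3/Tbx5 and Msx2, but no locus differed from its chromosome beyond counting error. Shox2 had the highest density, with 32 peaks or 45.7 per Mb, against 36.3 per Mb in the rest of chromosome 3, a ratio of 1.26 (exact binomial 95% interval 0.860 to 1.78). Meis1 had the highest ratio, with 38 peaks or 42.2 per Mb, against 30.01 per Mb in the rest of chromosome 11, a ratio of 1.41 (0.994 to 1.93). Its window widened by 100 kb on each side gave 1.42 (1.04 to 1.90), an interval that leaves out 1.

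Msx1 had 25 peaks or 41.7 per Mb, against 34.8 per Mb elsewhere on chromosome 5, a ratio of 1.20 (0.775 to 1.77). Prrx1 had 32 peaks or 40 per Mb, against 33.7 per Mb elsewhere on chromosome 1, a ratio of 1.19 (0.810 to 1.68). Hand2 had 30 peaks or 37.5 per Mb, against 31.9 per Mb elsewhere on chromosome 8, a ratio of 1.18 (0.793 to 1.68). All 3 intervals include 1.

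Meis2, the longest window, had 43 peaks or 35.8 per Mb, against 33.6 per Mb elsewhere on chromosome 2, a ratio of 1.07 (0.770 to 1.44). The Tbx3/Tbx5 window had 29 peaks or 32.2 per Mb, against 34.8 per Mb elsewhere on chromosome 5, a ratio of 0.925 (0.619 to 1.33). Msx2 had 23 peaks or 32.9 per Mb, against 37.1 per Mb elsewhere on chromosome 13, a ratio of 0.886 (0.561 to 1.33). Over all 8 windows there were 38.2 peaks per Mb, against 33.98 per Mb in the rest of the 7 chromosomes, a ratio of 1.12 (0.989 to 1.27). All peaks come from 1 library, so the intervals reflect counting alone and say nothing of variation between embryos.

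**Figure D1:**
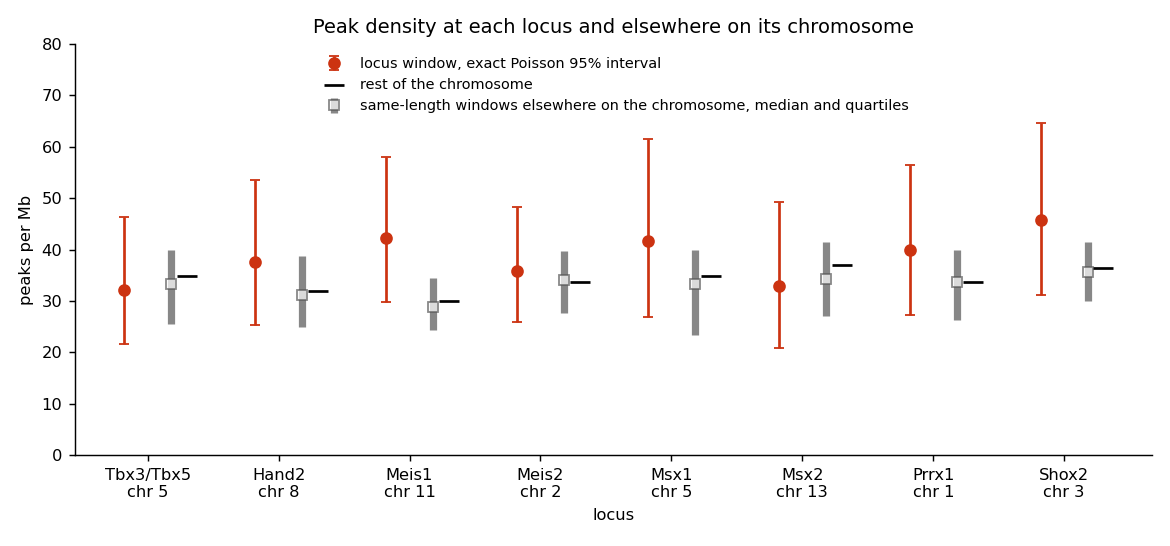
Peaks per Mb (y axis) at each locus (red points, bars are exact Poisson 95% intervals) beside windows of the same length elsewhere on the chromosome (grey squares are medians, bars are quartiles) and the rest of the chromosome (black lines). Shox2, at 45.7 per Mb, and Meis1, at 42.2 per Mb, stand highest, and every red bar spans the black line of its chromosome.

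Density varies along chromosomes, so each locus was also set beside windows of its own length placed end to end over the rest of its chromosome. Of the 8 loci, 5 lay within the middle range (quartiles) of these windows. Meis1, Msx1 and Shox2 lay above it, at 42.2, 41.7 and 45.7 peaks per Mb, against upper quartiles of 34.4, 40 and 41.4 per Mb on chromosomes 11, 5 and 3. All 3 were below the highest windows of those chromosomes, which reached 57.8, 165 and 97.1 per Mb.

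The next comparison was of the strength of the peaks. The fold enrichment is the authors' value per peak, and neither its background nor its scale is stated, so it is used only to compare peaks within this list. Over the 8 loci the median fold was 1.495 (quartiles 1.28 and 1.76), against 1.49 (1.25 and 1.79) in all other peaks of the list. At or above 2-fold were 33 of the 252 peaks (13.1%, exact binomial 95% interval 9.19 to 17.9%), and the share over the whole list was 14.3%. An FDR of at most 1% was given to 204 of the 252 (81.0%, 75.6 to 85.6%), and the share over the whole list was 77.6%. The minimum of 15 tags that any peak in the list has was found in 84 of the 252 (33.3%), against 33.8% of all other peaks. As a group, the loci lay close to the list in these measures, while single loci spread around it.

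The highest median fold was at Tbx3/Tbx5, the window of the forelimb T-box genes. It was 1.67 (95% interval of the median 1.52 to 1.96), against 1.5 in the rest of chromosome 5, which lies below that interval. Windows of the same length elsewhere on chromosome 5 had median folds with an upper quartile of 1.64 and a maximum of 2.37. Of the 8 loci, 4 had a median fold within the quartiles of such windows on their own chromosome, and Tbx3/Tbx5 lay just above them. Shox2 lay above them as well (1.575, against an upper quartile of 1.53). Meis1 (1.44, against a lower quartile of 1.45) and Prrx1 (1.37, against 1.42) lay below. At or above 2-fold were 8 of the 29 Tbx3/Tbx5 peaks (27.6%, 12.7 to 47.2%), against 15.6% in the rest of the chromosome. The difference in median fold did not hold beyond counting error under 2 alternatives. With peaks of FDR at most 1% only, the median was 1.67 (1.52 to 1.96), against 1.62 in the rest of the chromosome, a difference of 0.05 in place of 0.17. With the window narrowed by 100 kb on each side it was 1.645 (1.45 to 2.02), against 1.5. An FDR of at most 1% was given to 28 of the 29 (96.6%, 82.2 to 99.9%), against 78.6% in the rest of the chromosome. This difference held in the wider and in the narrower window, which share peaks with the unchanged window and are no separate check. By median p score Tbx3/Tbx5 (122.01) stood beside Shox2 (122.765) and Msx2 (122.54).

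The Tbx3/Tbx5 peaks of at least 2-fold were spread unevenly. Between 120509198 and 120567636 on chromosome 5, a stretch of 58.4 kb chosen after its values were seen, lay 4 peaks with folds of 2.41, 2.76, 2 and 2.12, which is 4 of the 8 peaks of at least 2-fold in the window. The peak with the highest p score of the window, a score in which 10 points stand for a p-value lower by a factor of 10, lay elsewhere, at 120041680 to 120042299. Its tags numbered 24 (15.4 to 35.7, exact Poisson 95% interval), with a fold of 2.78 and a p score of 233.74. The second, at 120520518 to 120521226 in the stretch above, held 23 tags (14.6 to 34.5), with a fold of 2.76 and a p score of 232.11. Next came 120287926 to 120288588, with 23 tags, a fold of 2.02 and a p score of 203.10. The leading pair was nearly equal in tags, fold and p score, and these 3 peaks did not differ in tags beyond counting error. The window also held the lowest fold of all 252 peaks, 0.78, in a peak of 33 tags, its largest number.

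**Figure D2:**
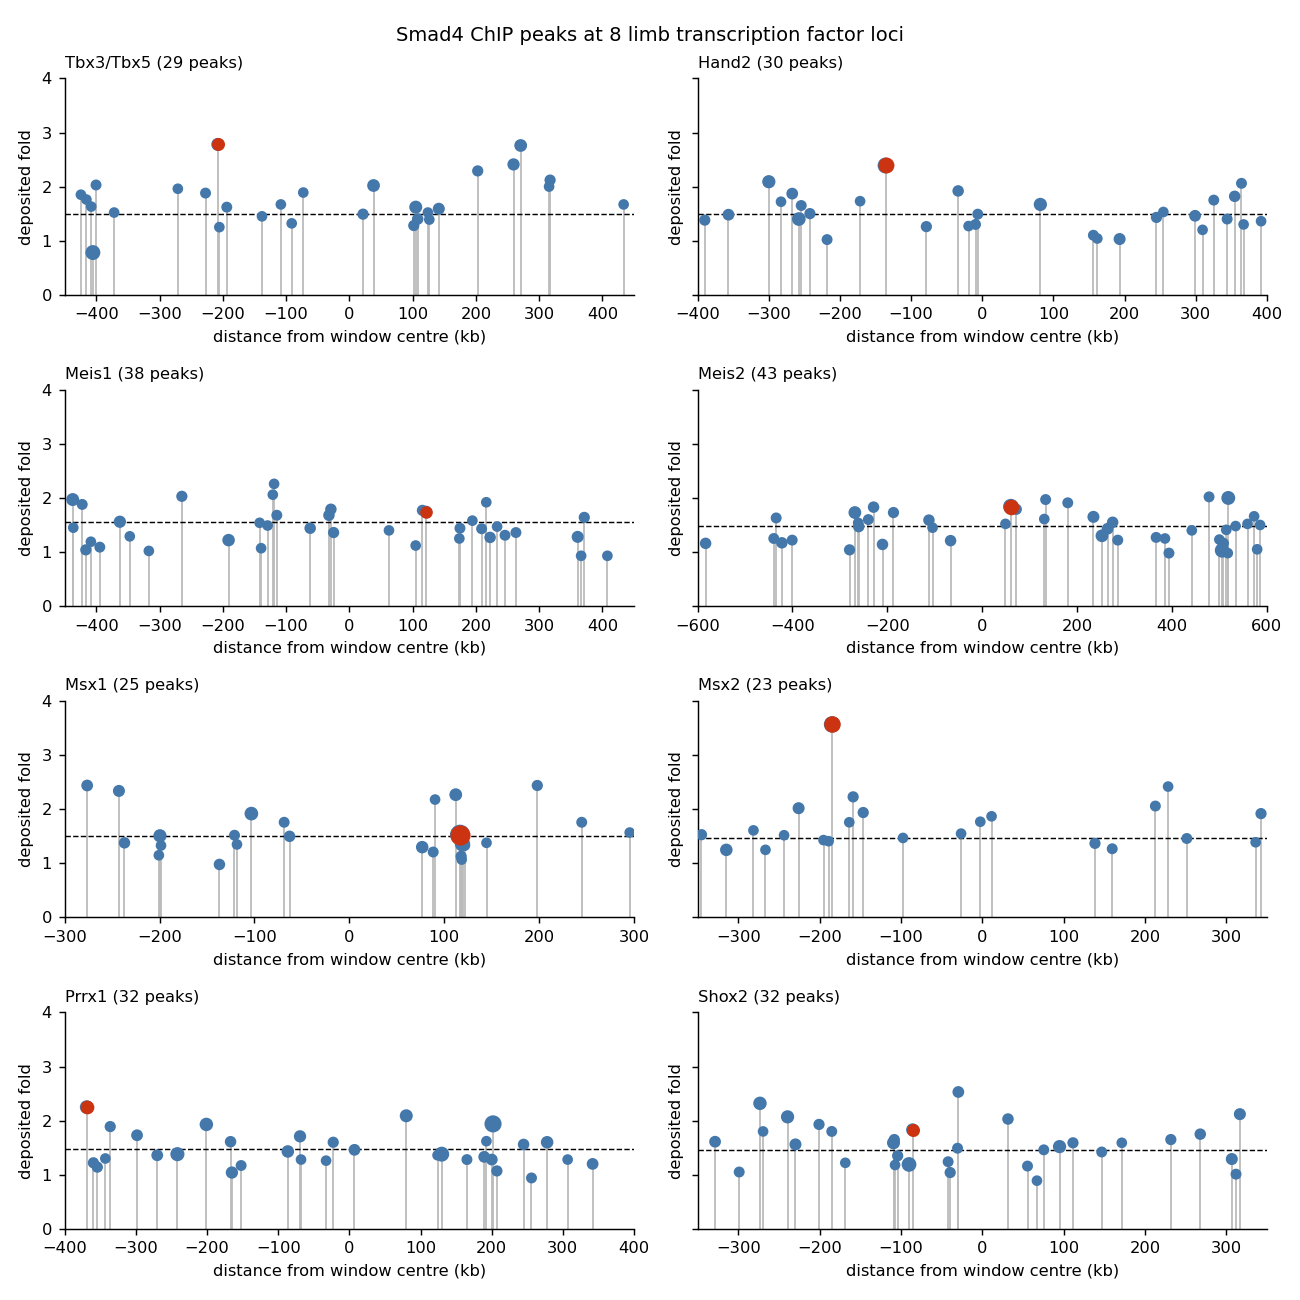
Deposited fold (y axis) of each peak against its distance in kb from the centre of the window (x axis) at the 8 loci, with the area of a point proportional to its tags, the peak with the highest p score in red and the median fold of the rest of the chromosome as a dashed line. The Msx2 peak of 3.57-fold stands above all others, and no other peak passes 3-fold.

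Msx2 held the strongest peak of the 8 loci. It lay on chromosome 13 at 53364822 to 53365903, was 1082 bp long with its summit 496 bp from the start, and held 41 tags (29.4 to 55.6). Its fold of 3.57 was the only one of at least 3 among the 252 peaks (0.397%), and 0.835% of the whole list reach that value. Its p score of 387.85, with an FDR of 0.17%, was the highest of the 252 and ranked 22 of 4344 on chromosome 13 and 576 in the list. By fold it ranked 6 on its chromosome and 204 in the list. The other 7 loci had 0 of 229 peaks of at least 3-fold, which allows a share of up to 1.31% (3 counts) and does not set them apart from the list.

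Around this peak, 2 others of at least 2-fold lay within the same 100 kb of the Msx2 window, at 53323892 to 53324567 with 20 tags (12.2 to 30.9) and a fold of 2.02, and at 53390996 to 53391567 with 17 tags (9.90 to 27.2) and a fold of 2.23. They had p scores of 180.16 and 157.34, well below that of the leading peak. Besides these, the window had peaks of 2.06-fold with 16 tags and of 2.42-fold with 15 tags, at 53762680 and 53778276. In all, 5 of its 23 peaks reached 2-fold (21.7%, 7.46 to 43.7%), against 13.2% in the rest of chromosome 13.

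Most Msx2 peaks were small. Exactly 15 tags were held by 12 of the 23 (52.2%, 30.6 to 73.2%), against 34.2% in the rest of the chromosome, which is inside that interval. In the window widened by 100 kb on each side it was 19 of 33 (57.6%, 39.2 to 74.5%), against 34.1%, and with peaks of FDR at most 1% only 12 of 23, against 28.1%, both outside. The median fold was 1.55 (1.43 to 1.92), against 1.46, and with peaks of FDR at most 1% only the difference of 0.09 turned to -0.03. With the window narrowed by 100 kb on each side it was 0.305. All 23 had an FDR of at most 1% (100%, 85.2 to 100%), against 76.2% in the rest of the chromosome. Between 53561788 and 53688366 no peak was called over 127 kb.

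Msx1, the other member of this homeobox pair, differed in the form of its leading peak. On chromosome 5 at 38315859 to 38317524 it held 64 tags (49.3 to 81.7), the most of the 252 peaks, over 1666 bp, the greatest length of the 252. Its p score of 381.88 ranked 26 of 5204 on the chromosome and 607 in the list, but its fold was 1.53, close to the median of 1.5 in the rest of the chromosome. By p score the leading peaks of Msx1 and Msx2 were thus nearly equal, while their folds were 1.53 and 3.57. The intervals of their tags, 49.3 to 81.7 and 29.4 to 55.6, overlap, which alone does not show that the counts are alike. The peaks also differ in length (1666 and 1082 bp).

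The leading Msx1 peak was part of a run of 6 peaks less than 10 kb apart, from 38311853 to 38322044, which held 169 tags in 10.2 kb. In order along the chromosome they held 23, 64, 17, 15, 35 and 15 tags, with folds of 2.27, 1.53, 1.13, 1.07, 1.36 and 1.33. The first of them, at 38311853 to 38312433, had the second highest p score of the window, 290.18, and ranked 90 on the chromosome. The peak at 38318747 to 38319774 followed with 209.13. The highest fold of the run was thus in its first peak and the most tags in its second. Between 38137305 and 38276478 the Msx1 window had no peak over 139 kb.

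Over the Msx1 window the median fold was 1.5 (1.33 to 1.76), equal to that in the rest of chromosome 5. At or above 2-fold were 5 of 25 peaks (20%, 6.83 to 40.7%), against 15.6% in the rest of the chromosome, and 21 had an FDR of at most 1% (84.0%, 63.9 to 95.5%), against 78.7%. With the window widened by 100 kb on each side, 11 of 37 peaks reached 2-fold (29.7%, 15.9 to 47.0%), against 15.5%, which lies below that interval. Its highest fold was 2.44, in peaks of 19 tags at 37923360 to 37923985 and of 17 tags at 38397742 to 38398443. With peaks less than 1 kb apart counted as 1 region, its density ratio was 1.05, against 1.20 without merging.

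**Figure D3:**
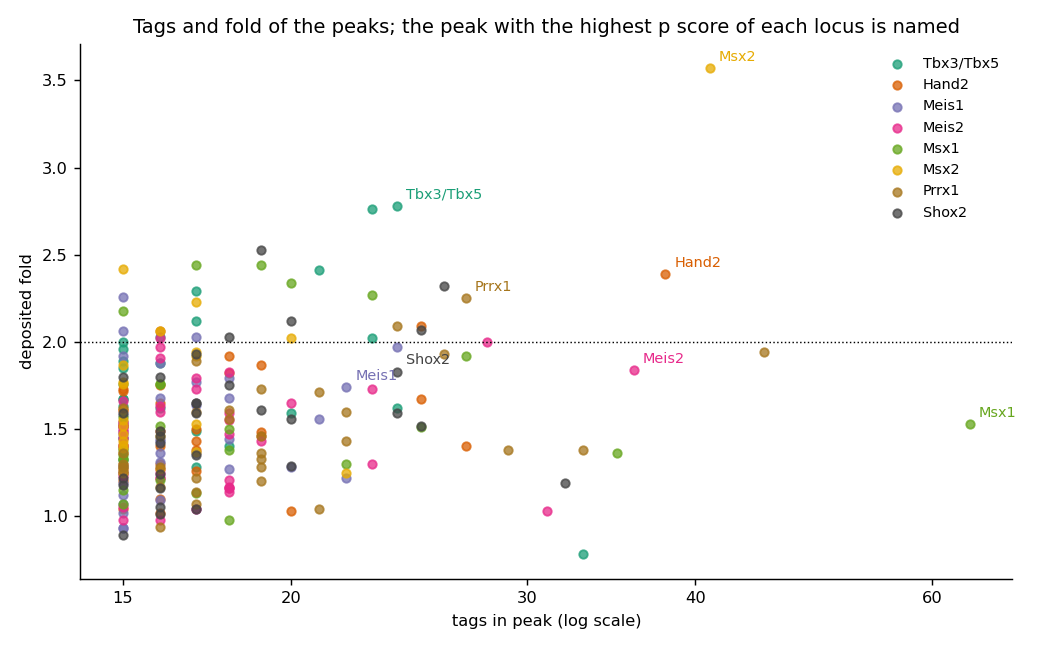
Deposited fold (y axis) against tags (x axis, log scale) of the 252 peaks, coloured by locus, with the peak of highest p score of each locus named and a dotted line at 2-fold. The named peaks of Msx2 (41 tags, 3.57-fold) and Msx1 (64 tags, 1.53-fold) lie far apart, while most peaks hold 15 to 19 tags.

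Meis1 and Meis2, genes of the proximal limb, had the most peaks per window and few of high fold. At Meis1 3 of 38 peaks reached 2-fold (7.89%, 1.66 to 21.4%), against 19% in the rest of chromosome 11. At Meis2 2 of 43 did (4.65%, 0.568 to 15.8%), against 14.8% in the rest of chromosome 2. Both shares lay below their chromosome, within counting error in these windows. With the Meis1 window widened by 100 kb on each side the share was 3 of 47 (6.38%, 1.34 to 17.5%), against 19.1%, which lies above that interval. Counted per Mb, Meis1 peaks of at least 2-fold were 0.584 times as dense as in the rest of the chromosome (0.120 to 1.71) and Meis2 peaks 0.335 times (0.0405 to 1.21), whereas all Meis1 peaks were 1.41 times as dense. The count per Mb at 2-fold was added after the data were seen.

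The median fold was 1.44 at Meis1 (1.29 to 1.58), against 1.55 in the rest of chromosome 11, and 1.47 at Meis2 (1.25 to 1.59), against 1.49 in the rest of chromosome 2. With the Meis2 window narrowed by 100 kb on each side its difference was 0.005, against -0.02 before. An FDR of at most 1% was given to 25 Meis1 peaks (65.8%, 48.6 to 80.4%), against 79.8%, and to 33 Meis2 peaks (76.7%, 61.4 to 88.2%), against 77.3%. These differences were within counting error, except that in the wider Meis1 window the median fold of 1.43 (1.30 to 1.53) had an interval below the 1.55 of the chromosome.

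The leading Meis2 peak had a p score well above the others of its window. On chromosome 2 at 115859869 to 115860818 it held 36 tags (25.2 to 49.8), with a fold of 1.84 and a p score of 312.10, rank 81 of 6015 on the chromosome. The second, at 115531208 to 115531929, had 23 tags (14.6 to 34.5) and a p score of 182.49, and next came 116318263 to 116319107, with 28 tags (18.6 to 40.5), a fold of 2 and a p score of 158.69. The highest fold was 2.02, in a peak of 16 tags at 116277879 to 116278474. Peaks gathered at the far end of the window, with 10 in its last 100 kb and 6 of them in a run of 19.5 kb from 116299595 to 116319107, and none was called over 143 kb between 115217200 and 115360340.

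Meis1 had no peak of comparable size. Its largest number of tags was 24, the lowest maximum of the 8 loci, and its leading peak, at 18970996 to 18971652 on chromosome 11, held 22 tags (13.8 to 33.3), with a fold of 1.74 and a p score of 191.02, rank 413 of 3574. The next in rank, at 18412218 to 18413111 and 18730785 to 18731286, had 24 and 15 tags, p scores of 161.44 and 157.17 and folds of 1.97 and 2.26, the last being the highest of the window. That peak and its neighbour at 18728740 to 18729282, with a fold of 2.06, were in a run of 6 peaks over 27.7 kb. The median distance between neighbouring Meis1 peaks was 12.0 kb, against 20.9 kb in the rest of the chromosome. At Meis2 this distance was similar, at 12.4 kb, against 18.7 kb in the rest of chromosome 2. Across the 8 loci it ran up to 21.4 kb at Msx2, against 15.6 kb in the rest of chromosome 13. The distance is another view of the density and was given no interval.

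Hand2, Prrx1 and Shox2 complete the set. At Hand2 the median fold was 1.47 (1.36 to 1.67), against 1.5 in the rest of chromosome 8. At or above 2-fold were 3 of 30 peaks (10.0%, 2.11 to 26.5%), against 13.9%, and 22 had an FDR of at most 1% (73.3%, 54.1 to 87.7%), against 78.6%. Its leading peak, at 59663572 to 59664708, held 38 tags (26.9 to 52.2), with a fold of 2.39, the highest of the window, and a p score of 329.69, rank 54 of 4108 on the chromosome. The second, at 59499798 to 59500456, had 25 tags (16.2 to 36.9), a fold of 2.09 and a p score of 254.67, and next came 60154463 to 60155107, with 18 tags, a fold of 1.82 and a p score of 168.14. At Hand2 the leading peak thus had the highest value in tags, fold and p score together.

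At Prrx1 the median peak had more tags and a lower fold than on its chromosome, within counting error for the fold. Prrx1 peaks held 18.5 tags at the median (quartiles 16 and 21.2), against 16 in the rest of chromosome 1 (15 and 19), and 6 of 32 held exactly 15 (18.8%, 7.21 to 36.4%), against 34.8%, which is inside that interval. Their median fold was 1.37 (1.28 to 1.6), the lowest of the 8 loci, against 1.47. Of its peaks 2 reached 2-fold (6.25%, 0.766 to 20.8%), against 12.4%, and 24 had an FDR of at most 1% (75%, 56.6 to 88.5%), against 77.5%. With peaks of FDR at most 1% only, the difference in median fold was -0.185, against -0.10 with all peaks.

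The leading Prrx1 peak, at 164830523 to 164831230, held 27 tags (17.8 to 39.3), with the window's highest fold of 2.25 and a p score of 276.53, rank 141 of 6554 on the chromosome. The second, at 165401251 to 165402553, was longer, at 1303 bp, and held 45 tags (32.8 to 60.2), with a fold of 1.94 and a p score of 229.60. It lay in a run of 5 peaks over 18.4 kb. Next came 165329337 to 165330260, with 33 tags (22.7 to 46.3), a fold of 1.38 and a p score of 192.10. The order by tags therefore differed from the order by fold.

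Shox2 had the densest window and no dominant peak. Its p scores led with 192.38, 185.03, 180.02 and 179.73, in peaks of 24, 18, 25 and 19 tags and folds of 1.83, 2.03, 2.07 and 2.53, at 66664090 to 66664725, 66781462 to 66781901, 66510228 to 66511084 and 66720313 to 66720967 on chromosome 3. These 4 peaks cannot be told apart in tags, and the first ranked only 427 of 5697 on its chromosome. The highest fold, 2.53, was in the fourth. Peaks held 17 tags at the median, against 16 in the rest of the chromosome, and 5 of 32 held exactly 15 (15.6%, 5.28 to 32.8%), against 35.0%. The interval of that share lies below the value of the chromosome, but not with peaks of FDR at most 1% only (10.7%, 2.27 to 28.2%, against 26.7%) or in the window narrowed by 100 kb on each side (16.7%, 4.74 to 37.4%, against 35.0%).

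The median fold at Shox2 was 1.575 (1.29 to 1.75), against 1.45 in the rest of chromosome 3. Of its peaks 5 reached 2-fold (15.6%, 5.28 to 32.8%), against 10.7%, and 28 had an FDR of at most 1% (87.5%, 71.0 to 96.5%), against 74.7%. With peaks of FDR at most 1% only, the difference in median fold was 0.04, against 0.125 with all peaks. No stretch without a peak was longer than 60.5 kb, the shortest such maximum of the 8 loci.

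**Figure D4:**
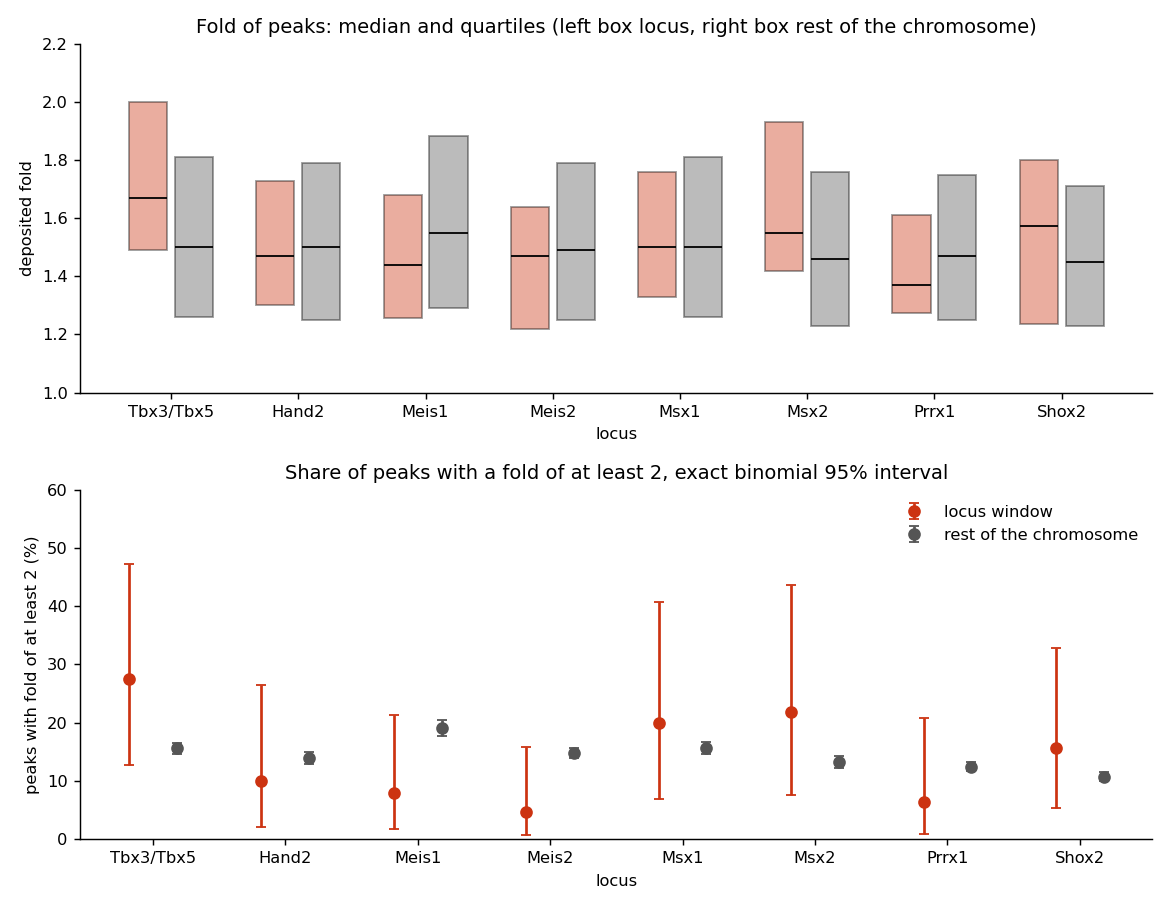
Top, deposited fold of peaks at each locus (red boxes) and in the rest of its chromosome (grey boxes), with the line at the median and the box from the lower to the upper quartile. Bottom, percentage of peaks with a fold of at least 2 with exact binomial 95% intervals. Tbx3/Tbx5 has the highest share, 27.6%, and Meis2 the lowest, 4.65%, and all 8 red intervals span the grey value of their chromosome.

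Ordered by the percentage of peaks at or above 2-fold, the loci ran from Tbx3/Tbx5 (27.6%) through Msx2 (21.7%), Msx1 (20%), Shox2 (15.6%), Hand2 (10.0%), Meis1 (7.89%) and Prrx1 (6.25%) to Meis2 (4.65%). The intervals of neighbours in this order overlap widely, and those of the first and last overlap between 12.7 and 15.8%. Msx1 and Msx2 together had 10 of 48 peaks of at least 2-fold (20.8%, 10.5 to 35.0%) and Meis1 and Meis2 together 5 of 81 (6.17%, 2.03 to 13.8%), a pairing made after the values were seen and not tested. The order by density was another one, with Shox2 and Meis1 at the top and Tbx3/Tbx5 and Msx2 at the bottom.

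For each locus, 5 measures (density, median fold and the shares of at least 2-fold, of FDR at most 1% and of exactly 15 tags) were set against the rest of the chromosome, 40 comparisons in all, with intervals not adjusted for their number. The value of the chromosome lay outside the interval of the locus in 4 of them, the median fold and the FDR share of Tbx3/Tbx5, the FDR share of Msx2 and the share of 15 tags at Shox2. The median fold of Tbx3/Tbx5 and the share of 15 tags at Shox2 lost this with peaks of FDR at most 1% only and with narrower windows, while both FDR shares kept it in wider and in narrower windows. Wider and narrower windows share peaks with the unchanged ones. Fold, p score and FDR are given by 1 caller from the same tags and are not independent measures. Runs of peaks less than 10 kb apart held from 30.4% of peaks at Msx2 (7 of 23), against 60.4% in the rest of chromosome 13, to 68.0% at Msx1, against 57.5% in the rest of chromosome 5. These shares were given no interval and are not among the 40 comparisons. Runs at a locus were counted within its window only, so a run that crosses an edge is cut there.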

How the data were processed

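Mouse forelimbs gave 1 Smad4 ChIP library and 1 input library. Build mm9 and the tools BWA (an aligner), MACS and SICER (peak callers) are listed, per the submitters' processing notes, without versions or settings. The single peak list was used as deposited. Its name gives MACS14 and mentions 10 kb before and after gene start sites. No source used here says whether peaks were kept or annotated by this distance, and such a filter would bear on densities and on stretches without a peak. Per the file headers, tag counts per peak are whole numbers, the p score is −log10 of a p-value multiplied by 10, the fold enrichment is a ratio, and the FDR is a percent, all made by the authors' caller. Library depth is unknown.

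Peaks were assigned to windows by midpoint. The rest of a chromosome ran from its first to its last peak without the window, and for Tbx3/Tbx5 and Msx1 it includes the other window. Density ratios have exact binomial, counts exact Poisson, shares exact binomial (Clopper-Pearson) and medians order-statistic 95% intervals. These intervals cover counting error only, not variation between libraries or embryos. They treat peaks as independent of each other, although many lie in runs. PCR copies of a molecule may remain among the tags, and the intervals do not allow for them. There were no tests, as each group has 1 library. Runs were peaks less than 10 kb apart. Named peaks were, by rule, the 3 with the highest p scores, that with the highest fold, all of at least 3-fold, those largest in tags or length, and the longest stretches without a peak. Other peaks were chosen after their values were seen. Members, windows and measures were chosen with earlier results of these data known. Alternatives changed the FDR, fold and tag limits, merging, window edges and the rest of the chromosome. Those for the shares of FDR at most 1% and of 15 tags were chosen after seeing the data. The tools were scipy 1.17.1, pandas 2.3.3 and numpy 2.4.6 in Python 3.11.15, with matplotlib 3.10.9 for plots, and the intervals were checked on simulated data.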

Additional observations from a re-analysis of the deposited data

How the results depend on the processing

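With peaks of at least 2-fold only, an alternative added after seeing the data, the density ratio moved out of its interval at 6 loci, to 1.64 at Tbx3/Tbx5, 0.584 at Meis1, 0.335 at Meis2, 1.46 at Msx2, 0.598 at Prrx1 and 1.84 at Shox2. It stayed inside at Hand2 (0.849) and Msx1 (1.54). These ratios rest on few peaks, and at all 8 loci their own intervals include 1. The interval was 0.706 to 3.25 at Tbx3/Tbx5, with 8 peaks, and 0.0405 to 1.21 at Meis2, with 2. No locus thus differed from its chromosome beyond counting error in this alternative. The share of peaks past the fold limit was 0% at 7 loci and 4.35% at Msx2 with a limit of 3, which follows from the stricter limit. Ranked by fold, the leading peak was another one at Meis1 (p score 157.17), Meis2 (130.02), Msx1 (198.35) and Shox2 (179.73). The FDR share of Tbx3/Tbx5 was 100% in the narrower window, just above its interval. All other alternatives left each value within the interval it had with all peaks and the unchanged window: density ratios ran from 0.835 to 1.47, differences in median fold from -0.185 to 0.305 and shares of at least 2-fold from 3.13% to 31.8%. Set against the rest of the chromosome, more results changed. The value of the chromosome no longer lay outside the interval of the locus for the median fold of Tbx3/Tbx5 and the share of 15 tags at Shox2, each with FDR at most 1% and with a narrower window. It newly lay outside in the wider window for the density, median fold and share of at least 2-fold at Meis1, the share of at least 2-fold at Msx1, and the share of 15 tags at Tbx3/Tbx5 (53.1%, against 34.5%) and Msx2, and for the last share at both loci with FDR at most 1% (50%, against 28.4%, at Tbx3/Tbx5). Within the first intervals the density ratio crossed 1 with FDR at most 1% at Tbx3/Tbx5 (1.14) and Msx2 (1.16), with merging at Tbx3/Tbx5 (1.01) and with a narrower window at Meis2 (0.951). The median fold of Msx1, equal to its chromosome, differed by -0.12 to 0.03. Except where the limit itself sets the change, the cause was not tested. No paired analysis was possible because there was only 1 ChIP and 1 input library. Counting error limits the reading of single peaks, as 15 tags are compatible with 8.4 to 24.7. The list holds no peak below 15 tags, and this interval does not allow for that limit.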
